A study of Homo sapiens with 18 samples.

Results

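The DNA damage sensing and repair genes considered here are 39 genes that sense broken or stalled DNA, pass the signal on and carry out the repair. They were taken by name: a probe was included if it was no control probe and its gene name in the scanner files was 1 of the 39, and no measured value entered that choice. They are 39 of 30484 gene names on the array, which carried 58 such probes among 41000, and 53 of them were among the 28665 probes kept after the filter on dim spots, so that each of the 39 genes had at least 1 kept probe. Where a gene had several kept probes (12 genes), the probe with the brightest mean signal represented it. The others are named for some of these genes, and the number of genes whose probes differ in sign is given below.

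Cells answer a DNA break with kinases of the ATM, ATR and DNA-PK type, which mark the chromatin beside the break and gather adaptor proteins there. Breaks are then closed either by homologous recombination, which copies an intact sister chromatid and runs mainly in the S and G2 phases, or by end joining, which ligates the ends directly. Many of the proteins are regulated by phosphorylation and ubiquitination, so their transcript level need not follow their activity.

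Transcripts were measured in A549 cells, a human lung adenocarcinoma line with epithelial features, on 18 one-colour Agilent arrays that form 6 groups of 3 biological replicates lettered A, B and C. Cells received 0.02 mg/mL of Ludox® silica NPs for 2 h in medium without serum and then recovered in complete medium with serum. The groups were cells treated with SM30 (9 nm in diameter) with 3 h of recovery time, cells treated with AS30 (18 nm) with 3 h, and cells treated with AS30 with 22 h, each with its own 3 controls that went through the same medium changes without NPs. SM30 was not sampled at 22 h, and 1 cell line, 1 dose and 1 exposure time were used on the arrays. Levels are given as log2 normalized signal, which can be compared between arrays for one probe but not between genes, and responses as log2 ratios of a treated array over the control array of the same letter.

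Between 51.9% and 72.4% of the spots of an array were well above background. The arrays sat on 5 slides, and at 3 h all AS30 treated arrays shared a slide and all of their controls another, so there the treatment and the slide cannot be told apart within a slide. The other 2 comparisons were separated from the slide only in part. SM30 treated arrays B and C sat on a slide without controls. AS30 controls A and B at 22 h sat on slides without treated arrays of that time. Of 6 epithelial markers, 5 were well above background on all 18 arrays, as were 3 of 6 alveolar type 2, 3 of 7 leukocyte, 1 of 7 fibroblast and none of 6 endothelial markers, while PECAM1 (endothelium), PTPRC (leukocytes) and COL1A2 (fibroblasts) were so on none. After SM30 the summed signals of the fibroblast markers (1607 to 2033 against 2213 to 2444 in controls) and of the alveolar type 2 markers (1398 to 1573 against 1320 to 1352) did not overlap, and the leukocyte sums did (1272 to 1887 against 1256 to 1858), as did the endothelial sums. These sums rest mainly on the brightest probes (mean log2 signal of 12.13 for THY1, 11.49 for CD79A and 10.38 for ABCA3). The higher alveolar type 2 sum was not shared by its list, where 4 of 6 markers were below 0 after SM30, with a median log2 ratio of -0.20. At 3 h and at 22 h of AS30 the fibroblast, leukocyte and alveolar type 2 sums overlapped those of the controls, and the leukocyte controls at 3 h ranged from 2543 to 10185. Single markers were called in limma. The epithelial CLDN4 was higher by a log2 ratio of 3.62 after SM30 (limma adjusted p = 0.000136). At 3 h of AS30 it was higher by 2.61 (limma adjusted p = 0.00140), with only 1 control array well above background. At 22 h of AS30 the epithelial KRT19 was higher, with a log2 ratio of 1.21 (limma adjusted p = 0.0234). The alveolar type 2 SFTPA1 was lower there (-0.87, limma adjusted p = 0.0189). The fibroblast LUM was lower too, at -3.43 from 1 pair. LUM was well above background on no treated array and on 1 control array, so the size of its change is not settled. All of these are transcripts read in a single cell line, and their part in the results was not tested. In bulk RNA, fewer cells with a transcript and less of it per cell cannot be told apart.

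No member of the set was called higher in treated cells, and few were called lower. In SM30 treated cells BRCA1 and MDC1 were lower, 2 of 39 members, at a Benjamini-Hochberg adjusted p under 0.05 in limma, where 7.49% of all probes tested were called, 3.13% lower and 4.35% higher. In AS30 treated cells at 3 h MDC1 and BRIP1 were lower, again 2 of 39, against 2.52% of all probes, 1.01% lower and 1.5% higher. At 22 h of AS30 FANCD2 and PRKDC were lower, 2 of 39, against 3.58% of all probes, 1.04% lower and 2.54% higher. The 2 members are 5.13% of the set each time. After SM30 this is below the 7.49% of probes called in either direction but above the 3.13% called lower. For AS30 it is above both shares at 3 h and at 22 h. A share that rests on 2 genes says little about the set. At an unadjusted p under 0.05 there were 10 members after SM30 (25.6%, against 25.1% of all probes), 15 after AS30 at 3 h (38.5%, against 24.4%) and 11 at 22 h (28.2%, against 22.9%). Of these, 9, 14 and 10 were lower, which is 23.1%, 35.9% and 25.6% of the members, where 13.3%, 11.2% and 10.1% of all probes were.

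The ratios leaned to the low side. Below 0 were 28 of 39 members after SM30 (71.8%, against 56.3% of all probes), 30 of 39 after AS30 at 3 h (76.9%, against 48.6%) and 32 of 39 at 22 h (82.1%, against 50.5%). The median log2 ratio of the members was -0.12 for SM30, -0.21 for AS30 at 3 h and -0.17 for AS30 at 22 h, where the medians of all probes were -0.054, 0.013 and -0.0047. A log2 ratio within 0.5 of 0 was found for 35, 30 and 34 members. At or below -0.5 lay 7.69%, 23.1% and 10.3% of the members, against 11.9%, 10.48% and 10.8% of all probes.

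The 3 pairs did not lean equally. For SM30 the members' medians in pairs A, B and C were -0.18, -0.12 and -0.10. For AS30 at 3 h they were -0.28, -0.38 and -0.072, and at 22 h -0.33, -0.025 and -0.26. Pair B at 22 h had 20 of 38 measured members below 0 where pairs A and C had 29 of 39 and 31 of 38, so the lean at 22 h lay in pairs A and C.

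A count that needs no fitted spread leaned the same way. All 3 SM30 treated arrays lay below all 3 controls for 16 of the 36 members measured on all 6 arrays, and all above for 3, where the background over all probes was 23.8% below and 19.2% above. For AS30 at 3 h the counts were 11 below and 1 above among 35 members, against 10.6% and 13.2%. For AS30 at 22 h they were 11 below and 1 above among 37, against 11.1% and 12.8%. The shares below were 44.4%, 31.4% and 29.7% of the members, given as a description since genes are not independent replicates.

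**Figure D1:**
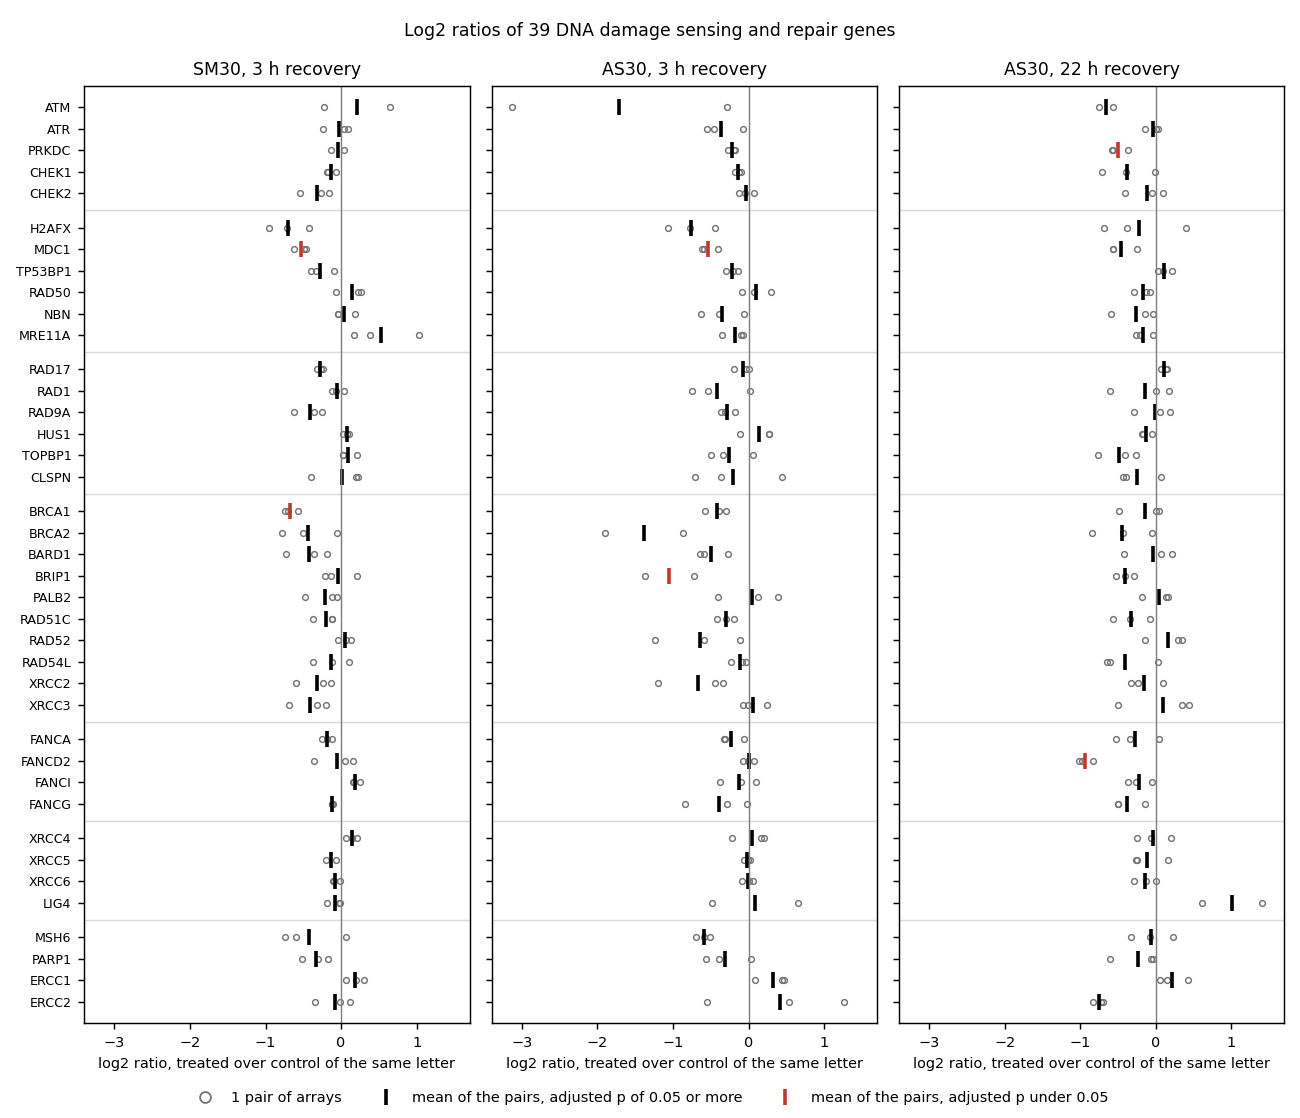
Log2 ratio of each of the 39 genes (vertical axis, grouped by role) in the 3 comparisons; open circles are the pairs of arrays, bars the mean of the pairs, red where the adjusted p was under 0.05. Bars lie left of 0 for 28, 30 and 32 of the 39 genes, and the 6 red bars are all left of 0.

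**Figure D2:**
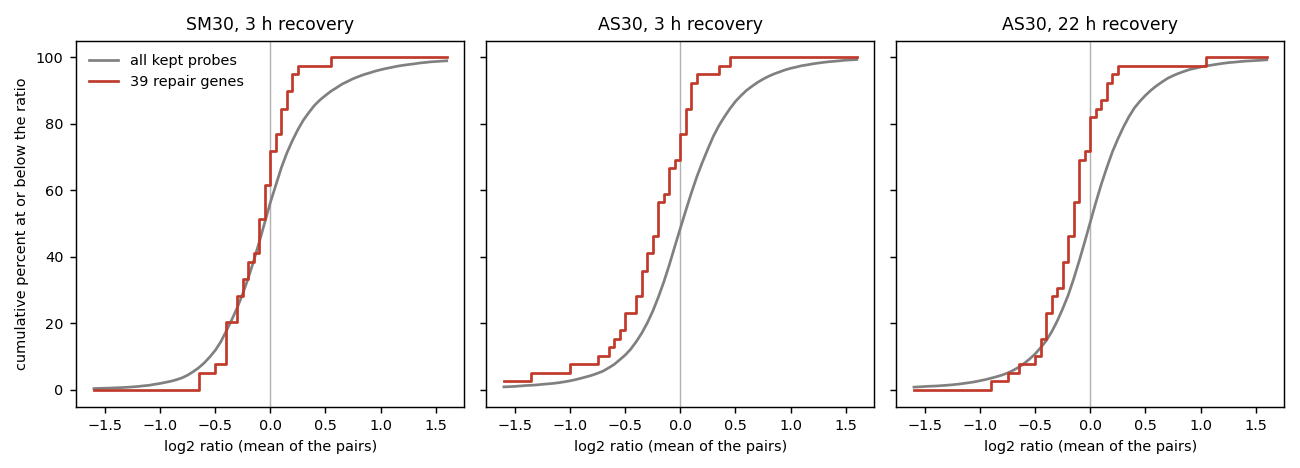
Cumulative percent of the 39 genes (red, in steps of 0.05) and of all kept probes (grey) at or below each log2 ratio, for the 3 comparisons. The red curve crosses 0 at 71.8%, 76.9% and 82.1%, and at -0.5 it stands at 7.69%, 23.1% and 10.3% of the genes, against 11.9%, 10.48% and 10.8% of all probes.

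Among the kinases, ATM, the kinase that answers double-strand breaks, was dim. Its representative probe was well above background on 5 of 18 arrays. In SM30 treated cells it read 3.79 on array A and 4.29 on array C, with no accepted value on array B, and 4.02, 3.47 and 3.64 in the controls. The groups overlapped. The log2 ratio was 0.21 ± 0.65 (SE, 2 pairs, limma adjusted p = 0.875), and pair A pointed down where pair C pointed up. In AS30 treated cells at 3 h the probe read 3.82, 4.13 and 4.92 in treated cells, well above background on none, and 4.11 and 7.26 in controls A and B. Treated values lay on both sides of control A, and the log2 ratio was -1.71 ± 0.65 (SE, 2 pairs, limma adjusted p = 0.190), with pair A at -0.29 and pair B at -3.13. The other kept ATM probe gave 0.089, 0.30 and 0.023 in the 3 comparisons, none called. The 2 probes thus had opposite signs at 3 h and at 22 h of AS30. In the SM30 comparison this other probe was the brighter one, with accepted values on every array. It read 5.10, 5.14 and 4.89 in treated cells and 4.99, 5.06 and 4.81 in controls. Each treated array was slightly above its same-letter control, though the groups overlapped. It was well above background on 2 treated and 2 control arrays there.

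PRKDC, the catalytic subunit of the DNA-dependent protein kinase of end joining, fell at 22 h of AS30. The treated arrays A, B and C read 10.22, 10.40 and 10.59 and the controls 10.80, 10.97 and 10.96. All treated arrays were below all controls. The log2 ratio was -0.51 ± 0.11 (SE, 3 pairs), a 1.42-fold lower signal, with a limma adjusted p of 0.04999 that lies at the threshold itself and passed in 5 of 20 alternative settings. With the slide as a block, a fit that rests on control C alone, the value was -0.56 and the call was lost. The call was also lost without any one of the pairs at 22 h (-0.57 to -0.47, limma adjusted p of 0.101 to 0.213). Its second probe gave -0.29 (adjusted p = 0.443 in limma), and in SM30 treated cells it gave 0.48 (adjusted p = 0.185 in limma). The representative probe gave -0.21 at 3 h of AS30 and -0.047 for SM30, neither called.

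ATR, the kinase that answers stalled replication forks, and the checkpoint kinases CHEK1 and CHEK2 that ATR and ATM activate, did not pass in any of the 3 comparisons. ATR gave -0.034, -0.36 and -0.037 for SM30, AS30 at 3 h and AS30 at 22 h. CHEK1 gave -0.14, -0.14 and -0.38, and CHEK2 -0.33, -0.029 and -0.12. The CHEK2 arrays separated after SM30, with treated values of 8.38 to 8.46 and control values of 8.63 to 8.94 (limma adjusted p = 0.169).

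Among the sensors and mediators, MDC1, the adaptor that binds phosphorylated histone H2AX beside a break, was lower in both 3 h comparisons. SM30 treated arrays read 9.00, 9.11 and 9.18 and their controls 9.50, 9.58 and 9.80. The groups did not overlap. The log2 ratio was -0.53 ± 0.11 (SE, 3 pairs, limma adjusted p = 0.0290), a 1.44-fold lower signal. The call was lost with normexp background correction (-0.27, limma adjusted p = 0.1003). It was also lost with the slide as a block, a fit that rests on treated array A alone. Without any one of the SM30 pairs it was lost too (-0.56 to -0.48, limma adjusted p of 0.103 to 0.167). AS30 treated arrays at 3 h read 9.02, 8.90 and 9.07 against controls of 9.63, 9.49 and 9.47, again without overlap. That ratio was -0.54 ± 0.11 (SE, 3 pairs, limma adjusted p = 0.0493), a 1.45-fold lower signal, and it passed in 6 of 20 alternative settings. The call was lost without pair A or pair B (adjusted p of 0.177 and 0.222 in limma). With the slide as a block the value was -0.28 (limma adjusted p = 0.894). No slide held both treated and control arrays of this comparison, and that fit took the slide difference from 22 h controls A and B. It therefore cannot decide the part of the slide here. At 22 h the treated arrays of 9.43, 9.50 and 9.56 were below the controls of 9.99, 9.74 and 10.13, and the ratio of -0.46 ± 0.11 (SE, 3 pairs) missed the threshold with a limma adjusted p of 0.0607. Within the one slide that held both SM30 treated array A and the 3 controls, MDC1 was lower by a log2 difference of -0.63, and on the slide with the 3 AS30 treated arrays at 22 h and control C by -0.64.

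H2AFX encodes the histone H2AX itself. It read 14.34, 14.51 and 14.51 in SM30 treated cells and 15.29, 15.22 and 14.94 in controls, and 14.29, 14.03 and 14.38 in AS30 treated cells at 3 h against 15.07, 15.09 and 14.82. Neither pair of groups overlapped. The log2 ratios of -0.70 ± 0.21 and -0.76 ± 0.21 (SE, 3 pairs each) did not pass, with limma adjusted p of 0.0872 and 0.0917. At 22 h the groups overlapped and the ratio was -0.23, with pair B at 0.40 and pairs A and C at -0.69 and -0.39.

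The MRE11 complex of RAD50, NBN and MRE11A holds and trims broken ends. MRE11A gave the largest positive log2 ratio of the set after SM30, 0.53 ± 0.16 (SE, 3 pairs, limma adjusted p = 0.0898). Treated arrays read 9.24, 9.34 and 9.38 and controls 9.07, 8.95 and 8.35, without overlap, and control C was the lowest. Its second kept probe gave -0.46 in the same cells (limma adjusted p = 0.170), so the direction of the gene was not settled. RAD50 gave 0.14, 0.094 and -0.17 in the 3 comparisons and NBN 0.033, -0.36 and -0.26, none called. TP53BP1, which steers breaks toward end joining, gave -0.28, -0.21 and 0.11, none called.

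The clamp genes RAD9A, RAD1 and HUS1, their loader RAD17, and TOPBP1 and CLSPN, which couple the clamp and the stalled fork to ATR and CHEK1, had no call among 6 in any of the 3 comparisons. For SM30 3 of 6 were below 0, with ratios from -0.41 (RAD9A) to 0.090 (TOPBP1). After AS30 at 3 h 5 of 6 were below 0, from -0.42 (RAD1) to 0.14 (HUS1). At 22 h 5 of 6 were below 0, from -0.48 (TOPBP1, limma adjusted p = 0.101) to 0.11 (RAD17). The second RAD9A probe gave -0.36, 0.33 and -0.37, opposite in sign to the first at 3 h of AS30.

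Homologous recombination was the largest class, with 10 genes. BRCA1, which promotes the resection of broken ends, had the larger of the 2 called changes after SM30. Treated arrays read 10.54, 10.66 and 10.62 and controls 11.24, 11.23 and 11.37, a gap of several times the spread within either group. The log2 ratio was -0.67 ± 0.13 (SE, 3 pairs, limma adjusted p = 0.0221), a 1.59-fold lower signal. It was -0.74 within the slide shared by array A and the controls. The call was lost with the slide as a block, a fit that rests on array A alone. It was also lost when any of the 3 SM30 pairs was left out (-0.73 to -0.63, limma adjusted p of 0.0980 to 0.138). After AS30 at 3 h the treated arrays of 10.97, 10.60 and 10.84 were below the controls of 11.36, 11.19 and 11.14, and the ratio of -0.42 ± 0.13 (SE, 3 pairs) did not pass with a limma adjusted p of 0.112. At 22 h the groups overlapped and the ratio was -0.15. The BRCA1 probe lay at chr17:38449948-38450007 of hg18, the build the scanner files use.

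BRIP1, the helicase that binds BRCA1, was called at 3 h of AS30 from a dim spot. Treated arrays read 5.39, 4.58 and 4.95, well above background on 1 of 3, and controls A and B 6.12 and 5.94, while control C gave no accepted value. All measured treated arrays were below both controls. The log2 ratio was -1.05 ± 0.19 (SE, 2 pairs, limma adjusted p = 0.0420), and it passed in 8 of 19 alternative settings. The call was lost without pair A (-1.37, adjusted p = 0.0673 in limma) or without pair B (-0.73, adjusted p = 0.284), and with normexp background correction the value was -0.15 (adjusted p = 0.203). With every spot kept, however dim, the sign turned (0.062, adjusted p = 0.986 in limma). In SM30 treated cells BRIP1 read 6.42, 6.42 and 6.50 against 6.64, 6.55 and 6.28, with overlap and a ratio of -0.044.

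The other recombination genes did not pass. BRCA2, which acts with PALB2 in strand exchange, gave -0.44 for SM30 with treated arrays of 5.61, 5.83 and 6.05 below controls of 6.38, 6.32 and 6.10 (limma adjusted p = 0.303). After AS30 at 3 h it gave -1.39 from 2 pairs of dim spots (limma adjusted p = 0.0582), and at 22 h -0.44. BARD1, the partner of BRCA1, gave -0.43, -0.50 and -0.045 in the 3 comparisons. XRCC2, which takes part in strand exchange, gave -0.32, -0.66 and -0.16, with AS30 arrays at 3 h of 6.25, 5.88 and 5.94 below controls of 6.70, 7.08 and 6.29 (limma adjusted p = 0.0908). RAD52, a mediator of strand annealing, gave 0.052, -0.65 and 0.16, and its value at 3 h of AS30 held a pair of -0.12 and a pair of -1.24. Of the 10 genes, 9, 8 and 7 were below 0, with medians of -0.27, -0.46 and -0.15, and the ratios of PALB2, RAD51C, RAD54L and XRCC3 lay between -0.41 and 0.094.

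In the Fanconi anaemia group, whose proteins unhook crosslinked strands, FANCD2 stood lower at 22 h of AS30. Treated arrays read 10.63, 10.80 and 10.67 and controls 11.66, 11.78 and 11.50, so the highest treated array was well below the lowest control. The log2 ratio was -0.94 ± 0.12 (SE, 3 pairs, limma adjusted p = 0.0180), a 1.92-fold lower signal. Its second probe was called too, at -0.65 ± 0.12 (SE, 3 pairs, limma adjusted p = 0.0304), and the third and dimmest probe gave -0.86 (limma adjusted p = 0.166). Within the slide that held the 3 treated arrays and control C the difference was -0.80. The call was kept in 17 of 20 alternative settings. It was lost with the mean of the 3 probes (-0.82, limma adjusted p = 0.203) and without pair A (-0.90, limma adjusted p = 0.0948). It was also lost with the slide as a block, a fit that rests on control C alone and so repeats the within-slide -0.80.

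The fall of FANCD2 was not seen at 3 h. AS30 treated arrays at 3 h read 11.41, 11.48 and 11.46 and controls 11.41, 11.55 and 11.39, with full overlap and a ratio of 4.1e-05. SM30 treated arrays read 11.75, 11.54 and 11.59 and controls 11.70, 11.90 and 11.43, with a ratio of -0.049. The difference between the AS30 responses at 22 h and 3 h was -0.94 ± 0.18 (SE), with a 95% interval of -1.35 to -0.54, but with a limma adjusted p of 0.1052 it did not pass in the test of the difference itself.

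FANCI, the partner of FANCD2 in the complex that is ubiquitinated at a crosslink, had 3 kept probes. The representative gave 0.19, -0.13 and -0.23 in the 3 comparisons, none called. Another, of nearly the same brightness, read 11.12, 11.74 and 10.97 in AS30 treated cells at 22 h and 12.46, 12.21 and 11.91 in controls, without overlap. Its log2 ratio was -0.92 ± 0.20 (SE, 3 pairs, limma adjusted p = 0.0488), and the third probe gave -0.40 (limma adjusted p = 0.261). All 3 FANCI probes were below 0 at 22 h, by different amounts. FANCA and FANCG, members of the core ligase complex, gave -0.28 and -0.39 at 22 h, -0.23 and -0.39 at 3 h of AS30, and -0.19 and -0.12 for SM30, none called.

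Of the end joining genes, the Ku subunits XRCC5 and XRCC6 and the ligase partner XRCC4 stayed within -0.14 and 0.14 in all 3 comparisons. XRCC6 read 16.14 to 16.67 over the 18 arrays. LIG4, the ligase of the pathway, was dim. At 22 h of AS30 it read 4.65, 4.65 and 4.74 in treated cells and 3.25 and 4.13 in controls A and C, none of the controls well above background, and the ratio of 1.01 ± 0.30 (SE, 2 pairs) did not pass (limma adjusted p = 0.119), so no fold is given.

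Among the remaining repair genes, MSH6, the mismatch recognition subunit, read 14.12, 14.09 and 14.14 in AS30 treated cells at 3 h and 14.81, 14.68 and 14.64 in controls. The groups did not overlap, and the ratio of -0.60 ± 0.17 (SE, 3 pairs) had a limma adjusted p of 0.0960. After SM30 it gave -0.42 with overlap and at 22 h of AS30 -0.061. PARP1, the sensor of single-strand breaks, gave -0.34, -0.31 and -0.24, none called. ERCC1, part of the excision nuclease, had all 3 treated arrays above all 3 controls in each comparison, at 0.19, 0.33 and 0.21, and did not pass in any (limma adjusted p of 0.163 to 0.392).

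ERCC2, the XPD helicase of nucleotide excision repair, showed how far probes of one gene can part. Its brighter probe read 9.09, 9.02 and 8.87 in AS30 treated cells at 22 h and 9.81, 9.86 and 9.58 in controls, a ratio of -0.75 ± 0.28 (SE, 3 pairs, limma adjusted p = 0.160). The dimmer probe gave 0.55 for the same arrays (limma adjusted p = 0.101). At 3 h of AS30 the brighter probe gave 0.42, with pairs of 1.26, 0.54 and -0.55. Over the 12 genes with several kept probes, the probes differed in sign for 4, 4 and 3 genes in the 3 comparisons. Among them were NBN (-0.14 and 0.033) and FANCI (-0.27 to 0.30) after SM30. RAD17 (-0.073 and 0.11) was among them at 3 h of AS30 and MRE11A (-0.17 and 0.16) at 22 h.

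**Figure D3:**
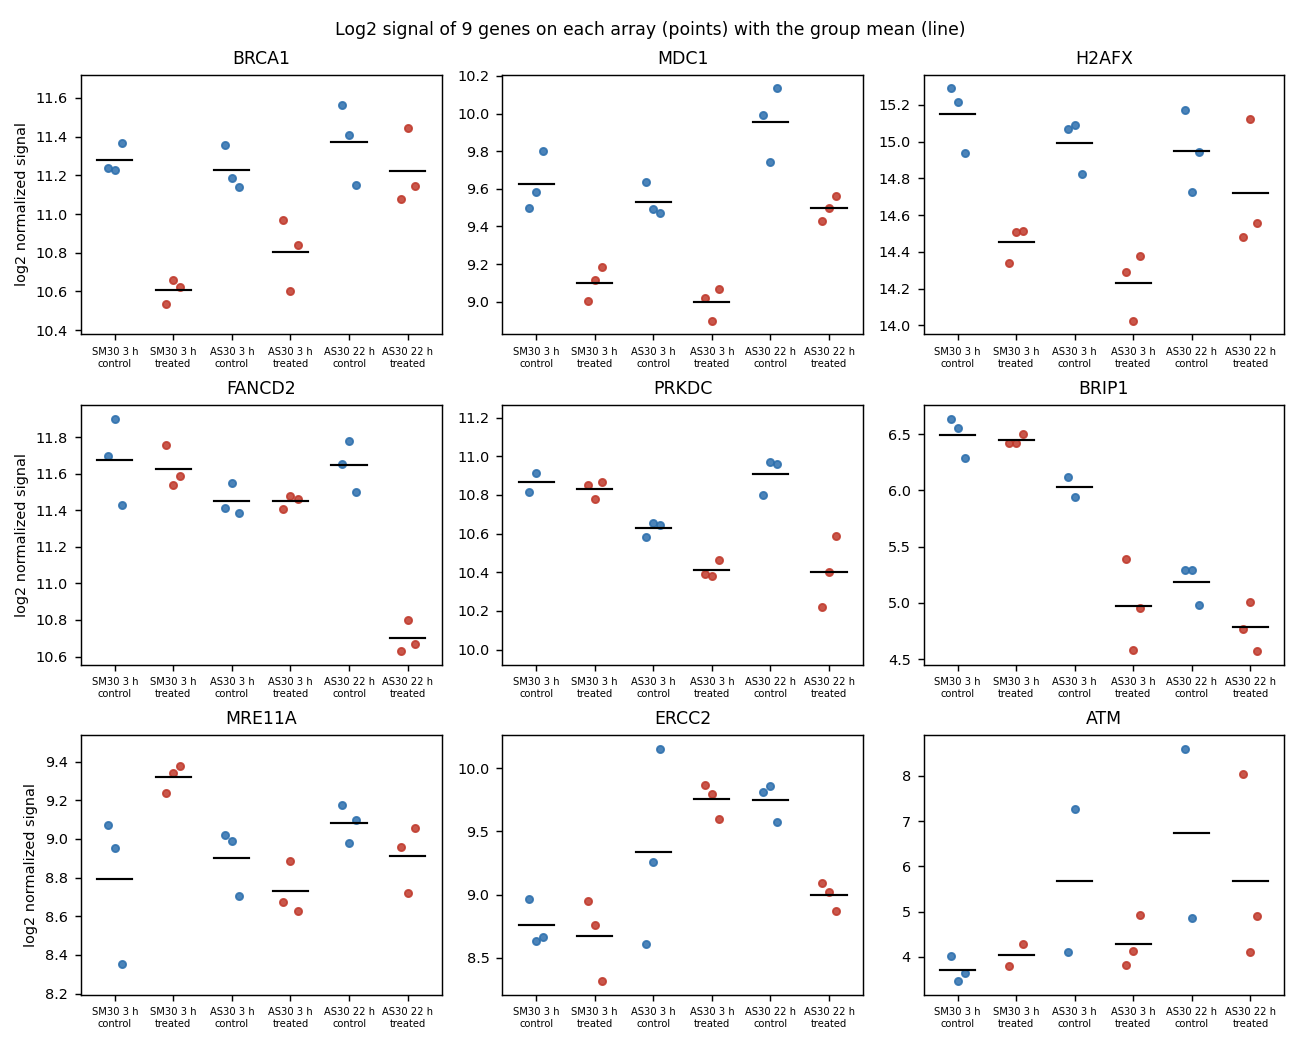
Log2 normalized signal of 9 genes on each array; points are arrays (blue control, red treated), lines the mean of the accepted values, and the vertical axis differs between panels. BRCA1 and MDC1 separate after SM30, FANCD2 and PRKDC separate at 22 h of AS30, and ATM scatters between about 3.47 and 8.59 with missing arrays.

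The responses to the particles were also set against each other. At 3 h SM30 and AS30 were compared at the same dose by mass, with particles of different size and separate controls, and no member was called among 39, where 0.014% of all probes were. BRIP1 had the smallest unadjusted p there, with a difference of 1.00 ± 0.25 (SE, SM30 minus AS30, limma adjusted p = 0.230), and 4 of 39 members were under 0.05 before adjustment (10.3%, against 14.6% of all probes). For MDC1 the difference was 0.0077 with a 95% interval of -0.36 to 0.37, and for BRCA1 it was -0.25 with an interval of -0.67 to 0.18. The intervals span 0 but also hold differences of a size similar to the responses themselves. Between 22 h and 3 h of AS30 no member was called either, where 0.0285% of all probes were, and 5 of 39 had an unadjusted p under 0.05 (12.8%, against 16.9% of all probes). The test of the difference had little to show among all probes too, since 4 of 28595 and 8 of 28086 were called.

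Between AS30 controls at 22 h and 3 h few members were called, but the values leaned to the high side at 22 h. The 3 h controls shared a slide with 22 h control A only, so recovery time and slide were separated only in part. At an unadjusted p under 0.05 there were 10 of 39 members (25.6%, against 14.9% of all probes), 7 higher and 3 lower. Below 0 were 13 of 39 (33.3%, against 47.1% of all probes). The members' median was 0.11, where that of all probes was 0.019. LIG4 was called lower in AS30 controls at 22 h than at 3 h, 1 of 39, against 1.3% of all probes, at -1.37 ± 0.30 (SE, limma adjusted p = 0.0475). It read 3.25 and 4.13 at 22 h, well above background on none of 3, and 4.65 and 5.46 at 3 h, well above on 1 of 3, so no fold is given. MDC1 was at 0.42 in the same comparison (limma adjusted p = 0.0989), and the 22 h controls of MDC1 lay above the 3 h controls.

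For the genes called against controls, the 250 bases before an annotated transcription start are given, where promoter factors shared by repair genes could sit. Other starts of a gene, if any, were not searched, so a word missing here can be present at another start. RefSeq promoter windows of GRCh38.p14, which run from 250 bases before to 50 bases after the start, were matched for 34 of the 39 genes. They were searched on both strands for the E2F words TTTCCCGC, TTTGGCGC, TTTCGCGC and TTTGCCGC, and for the word CCAAT. Capitals below mark such words on either strand, and PRKDC is named only.

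BRCA1, chr17:43170328-43170577, minus strand: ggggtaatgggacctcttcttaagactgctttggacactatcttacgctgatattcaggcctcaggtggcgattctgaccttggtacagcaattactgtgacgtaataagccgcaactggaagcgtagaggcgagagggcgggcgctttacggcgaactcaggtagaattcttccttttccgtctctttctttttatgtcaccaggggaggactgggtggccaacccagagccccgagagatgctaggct
MDC1, chr6:30717282-30717531, minus strand: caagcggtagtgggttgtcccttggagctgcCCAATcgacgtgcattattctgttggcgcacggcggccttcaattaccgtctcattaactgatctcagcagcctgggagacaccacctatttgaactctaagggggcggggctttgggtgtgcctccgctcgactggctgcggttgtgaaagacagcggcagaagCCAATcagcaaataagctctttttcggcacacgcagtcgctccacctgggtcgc
BRIP1, chr17:61863529-61863778, minus strand: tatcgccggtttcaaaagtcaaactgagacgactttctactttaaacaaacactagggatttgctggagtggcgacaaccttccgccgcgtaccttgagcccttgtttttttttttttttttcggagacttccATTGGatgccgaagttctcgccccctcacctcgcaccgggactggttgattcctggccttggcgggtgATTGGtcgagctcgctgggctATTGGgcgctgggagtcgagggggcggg
FANCD2, chr3:10026187-10026436, plus strand: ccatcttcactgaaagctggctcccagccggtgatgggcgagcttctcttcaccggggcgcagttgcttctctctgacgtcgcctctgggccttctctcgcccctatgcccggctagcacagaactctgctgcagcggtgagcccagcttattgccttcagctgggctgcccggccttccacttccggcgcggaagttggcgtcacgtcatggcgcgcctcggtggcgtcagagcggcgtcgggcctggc

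MDC1 held 2 CCAAT words and BRIP1 held 3, while the BRCA1 and FANCD2 stretches held neither kind of word. Each stretch lies before 1 annotated start, and which start A549 cells use was not measured. For BRCA1 the absence therefore holds for the printed window only, not for the promoter of the gene. FANCD2 had 1 E2F word that began 2 bases before the start and ran past it. Over the windows, an E2F word was found in 7 of 34 members (20.6%) and in 3.31% of all 35116 windows, and a CCAAT word in 18 of 34 (52.9%) and in 34.6%. The members with an E2F word were FANCD2, FANCA, CLSPN, TOPBP1, XRCC2, XRCC6 and MSH6. These are matches of letters only.

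Beyond the 39 genes, 108 other genes of repair and checkpoint signalling were listed by pathway and 106 were measured. After SM30 2 rose and 9 fell, with 84 of 106 below 0 and a median of -0.22. After AS30 at 3 h 1 rose and 2 fell, with 75 below 0 and a median of -0.18, and at 22 h 2 rose (limma, adjusted p under 0.05), with 68 below 0 and a median of -0.085. Of all probes 3.13% were called lower and 4.35% higher after SM30. For AS30 these shares were 1.01% and 1.5% at 3 h and 1.04% and 2.54% at 22 h. Below 0 were 56.3%, 48.6% and 50.5% of all probes in the 3 comparisons.

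EME1, a subunit of a crossover nuclease, fell after SM30 by 0.97 on the log2 scale (SE 0.11, limma adjusted p = 0.00323), and UBE2T, the ubiquitin-conjugating enzyme of FANCD2, by 0.55. CDC25A, the phosphatase that CHEK1 targets, fell by 1.00 and RPA2, a subunit of the single-strand binding complex, by 0.65, while WEE1, the kinase that holds CDK1 inactive, rose by 0.67 (limma adjusted p = 0.0103). FEN1 and UNG of base excision repair fell by 0.66 and 0.75, and PMS1 of mismatch repair by 0.53. XPA, which verifies helix distortions, fell by 1.09 after SM30 and by 0.97 at 3 h of AS30, and FAN1, a crosslink nuclease, fell by 0.73 at 3 h of AS30. TDP2, which removes trapped topoisomerase 2, rose by 0.73 after SM30 and by 0.62 at 22 h of AS30, UBE2B, a ubiquitin-conjugating enzyme of damage tolerance, by 0.75 at 3 h of AS30, and CETN2, a subunit of the XPC complex, by 0.84 at 22 h.

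Lists of cell cycle genes were read on the same arrays. Of 20 S phase genes, all were below 0 after SM30 with a median of -0.31 and 3 fell in limma, among them CDC6 by 0.74 and ORC1 by 0.61, which load the replicative helicase. AS30 treated cells at 3 h had 19 of 20 below 0 and the same 2 named genes fell, by 0.68 and 0.60, and at 22 h 17 were below 0 with a median of -0.21. Of 21 mitosis genes, 19 and 19 were below 0 at 3 h of SM30 and AS30 and all 21 at 22 h of AS30, where the median was -0.78 and 3 fell, among them KIF20A, a kinesin of cytokinesis, by 1.08 and CDC20, the activator of the anaphase-promoting complex, by 0.91. CDC20 also fell after SM30, by 0.82. Over all probes 56.3%, 48.6% and 50.5% were below 0 in the 3 comparisons, and 3.13%, 1.01% and 1.04% were called lower. The part of the cell cycle in the repair genes' values was not tested.

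Of 21 targets of p53, which ATM and CHEK2 can activate, 6 rose and 1 fell after SM30, 3 rose and 1 fell at 3 h of AS30 and 2 rose at 22 h. Over all probes 4.35%, 1.5% and 2.54% were called higher in the 3 comparisons, and 3.13%, 1.01% and 1.04% lower. TP53INP1, a stress-induced autophagy factor, rose by 1.81, 2.16 and 1.44 in the 3 comparisons. SESN2, a stress-induced sestrin, rose by 1.41 after SM30, PLK3, a stress-induced kinase, by 0.96 at 3 h of AS30 and PHLDA3, an inhibitor of AKT, by 0.67 at 22 h. CDKN1A, the cyclin-dependent kinase inhibitor p21 and named after its values were seen, rose by 1.35 (limma adjusted p = 0.00104) after SM30 and by 0.76 (limma adjusted p = 0.0184) at 3 h of AS30. PLK2, a kinase of the same list, fell after SM30 by 0.89 and GADD45A, a stress sensor, at 3 h of AS30 by 0.68. The medians of the p53 list were 0.093, 0.11 and 0.14, with 10, 9 and 7 of the 21 genes below 0.

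**Figure D4:**
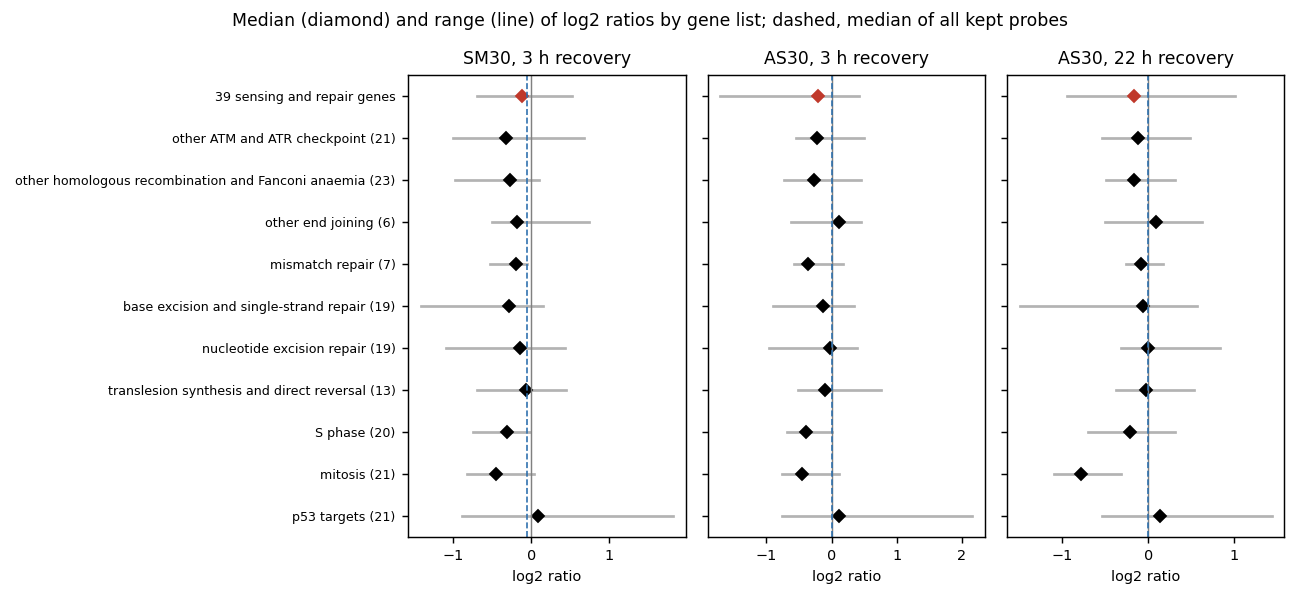
Median (diamond) and full range (line) of log2 ratios for the 39 genes (red) and for lists of other repair, cell cycle and p53 target genes, with the number of genes in brackets; the dashed line is the median of all kept probes. The 39 genes lie at -0.12, -0.21 and -0.17, the S phase list at -0.31, -0.39 and -0.21 and the mitosis list at -0.45, -0.45 and -0.78.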

How the data were processed

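Total RNA was labelled with Cy3 and hybridized to Agilent one-colour arrays. Per the file headers, Agilent Feature Extraction 10.5.1.1 made the deposited scanner files, whose intensity values (processed signal) are background-subtracted and detrended within the array. The authors' deposited expression table holds their quantile-normalized intensity and served as an alternative. Here, log2 intensity of the deposited non-control spots was quantile-normalized over 18 arrays, spots not positive and significant or flagged as outliers were set missing, spots of a probe were averaged, and probes with over 33% missing were removed. Ratios of treated over same-letter control arrays (9 pairs, 3 classes, 6 residual degrees of freedom before moderation) were tested with limma 3.58.1 in R 4.3.3, with Benjamini-Hochberg adjustment over all kept probes. AS30 controls at 22 h and 3 h were compared in a fit of all 18 arrays as 6 groups. The pairing is the authors' own, treated over corresponding control. The script was tested on simulated data. Named were ATM, each member called, and the 4 largest rises and 4 largest falls per comparison among members with 3 ratios, and of each other list up to 2 called rises and 2 called falls per comparison; the remaining members were named after their values were seen, to complete the account by role. The members, lists and tests were chosen with earlier results of these data known. The number of arrays limits the precision. No sample was left out, except where a spot was missing.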

Additional observations from a re-analysis of the deposited data

Results flagged for a closer look

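MRE11A had all 3 SM30 pairs above 0 (mean log2 ratio 0.53) and all 3 AS30 pairs at 3 h below 0 (-0.17). The difference of the responses was 0.70, and in limma it did not pass (adjusted p = 0.265). Its second kept probe gave -0.46 after SM30.

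TP53BP1 had all 3 AS30 pairs above 0 at 22 h (0.11) and below 0 at 3 h (-0.21). The difference was 0.33, and in limma it did not pass (adjusted p = 0.322). No group of 4 or more arrays existed in which a single array could be tested as standing apart.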

How the results depend on the processing

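Members called, against 2, 2 and 2 for SM30, AS30 at 3 h and AS30 at 22 h: 75th percentile scaling gave 2, 1 and 1, normexp 2 (BRCA1 and CHEK2, not MDC1), 0 and 2, no filter 2, 0 and 1, probes detected on all 18 arrays 2, 1 and 2, keeping outlier spots 2, 2 and 1, the authors' values also 2, 2 and 1, and the mean of a gene's probes 2, 1 and 0. Without the replicate block they were 3, 6 and 3, with the slide as a fixed block 0, 0 and 0, with it as a random block 4, 9 and 5, and with ratios over the mean of the 3 controls, which leave out the controls' own spread, 13, 18 and 11. The last also called 5 members between SM30 and AS30 and 7 between 22 h and 3 h. Between 22 h and 3 h the unpaired and the random-block fits called 1 each (FANCD2). The random-block fit called 10.7%, 13.8% and 6.84% of all probes, and the ratios over the mean of the controls 33%, 34.5% and 31.1%. The slide correlation in the random-block fit was -0.084. A correlation below 0 narrows the error between slides, where the whole AS30 comparison at 3 h lies. For AS30 at 3 h the fixed-block fit took the slide difference from 22 h controls A and B, so its values there cannot decide the part of the slide. For SM30 that fit rested on treated array A alone and at 22 h of AS30 on control C alone. Its values there are the within-slide differences, not a separate check. Leaving out a pair gave 0 to 3, 0 to 4 and 0 to 2 members, 0 to 0 between SM30 and AS30 and 0 to 1 (ERCC2, without pair C of AS30 at 3 h) between 22 h and 3 h. Without that pair 3060 probes were called at 3 h of AS30 in place of 720, and without pair A at 22 h 2 in place of 1008. Without any one of the SM30 pairs 289 to 567 probes were called after SM30 in place of 2146, with 0 members. Among controls 0 members were called under normexp, no filter, probes on all arrays (where LIG4 was not tested), outlier spots kept, the authors' values, the probe mean and the replicate block of the 6 arrays, and BRIP1 in place of LIG4 under 75th percentile scaling. Leaving out a control array gave 0 to 5, the 5 without 3 h control C. Letters were not shown to pair the arrays, since same-letter deviations correlated at -0.091 to 0.476. The members' median for SM30 was -0.067 under normexp and -0.19 with the slide as a fixed block, -0.13 to -0.12 without a pair, and it stayed below 0 in all 20 settings, as did those of AS30 at 3 h (-0.32 to -0.12) and 22 h (-0.26 to -0.082); without a pair these were -0.32 to -0.18 and -0.26 to -0.11. BRCA1, MDC1, PRKDC and FANCD2 kept their direction in all settings. BRIP1 turned to 0.062 with no filter, and ATM to -0.22 without SM30 pair C (-0.22 to 0.65 without a pair), to 2.33 at 3 h of AS30 with the slide as a fixed block and to 0.12 at 22 h with no filter; the causes were not tested. Dim probes limit ATM, BRCA2, BRIP1 and LIG4, which were not detected on all 18 arrays.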
